A study of Mus musculus with 5 samples.

Results

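The miR-465 family is a group of mouse microRNAs (miRNAs, RNAs of about 22 bases that guide Argonaute proteins to messenger RNAs) made from near-identical hairpins on the X chromosome. Its members were taken by name: every mature miRNA called miR-465a, miR-465b or miR-465c, on either arm of its hairpin. This gave 6 of the 736 mature names counted in the series. The 3 names of the 3p arm share a most abundant sequence and were joined, so that the 6 names form 4 of 717 distinct features: miR-465c-5p, miR-465b-5p, miR-465a-5p and the shared miR-465 3p arm. All 4 passed the filter on low counts, as did 246 of the 717 features.

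The series sequenced small RNA from testes of mice without functional Mtdh, which encodes metadherin, a membrane-associated and RNA-binding protein. There were 3 libraries from Mtdh-/- mice, described as deficient for exon 3, and 2 libraries from wild-type (WT) mice. All mice were of the C57BL/6 strain and 6 months old, and the labels name no treatment in either genotype. The labels do not say how the exon was removed, in which cells, or whether each library came from a separate animal, and small RNA counts give no check of the Mtdh messenger RNA. The p-values below therefore measure the spread between these libraries, which may be technical.

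A miRNA hairpin is cut by Drosha and then Dicer into a short duplex, and usually 1 strand of the duplex, from the 5p or the 3p arm, is kept while the other is degraded. Bases 2 to 8 of the kept strand, the seed, do most of the pairing with target messenger RNAs. The miR-465 hairpins lie in a fast-evolving X-linked miRNA cluster between Slitrk2 and Fmr1 that is known for expression in male germ cells, and miRNAs of this cluster are known to be made during meiosis, when most X-linked genes are silenced.

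The mature sequences show what the counts can and cannot tell apart, and are given here from RefSeq (GRCm38.p6) from 5′ to 3′ with the seed in capitals.

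miR-465c-5p: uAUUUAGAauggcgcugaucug

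miR-465b-5p: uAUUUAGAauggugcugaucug

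miR-465a-5p: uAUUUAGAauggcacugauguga

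miR-465 3p (a, b and c): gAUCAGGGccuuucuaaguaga

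The 5p forms of c and b differ at a single base, C13U, counted from 1 at the 5′ end with the base of c first. The 5p form of a differs from that of c at 2 aligned bases, G14A and C20G, and is 23 bases long, against 22 for c. The seed AUUUAGA is common to all the 5p forms, and the seed AUCAGGG to the 3p form. No miRNA outside the family among the 736 names has either seed, so the 5p members can be read as 1 seed group and the 3p arm as another.

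The hairpins lie on the minus strand of the X chromosome in a row of 6 that spans 16.47 kb in GRCm38. In order of coordinate they are Mir465d, Mir465c-1, Mir465b-1, Mir465c-2, Mir465b-2 and Mir465, the last of which makes miR-465a. Neighbouring hairpins start 3.25 to 3.32 kb apart, so c and b hairpins alternate as a repeated unit. No other gene of the GENCODE M21 annotation overlaps any of them, which makes all of them intergenic, and the nearest protein-coding gene, Slitrk2, lies 161 kb away. Mature miR-465d names were not analysed here. The hairpins below, with both mature arms in capitals, show that c, b and a differ in the 5p arm and in the A-rich loop.

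Mir465c-1, chrX:66825955-66826035: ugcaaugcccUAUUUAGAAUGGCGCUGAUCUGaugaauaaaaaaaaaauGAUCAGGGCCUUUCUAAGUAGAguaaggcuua

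Mir465b-1, chrX:66829202-66829280: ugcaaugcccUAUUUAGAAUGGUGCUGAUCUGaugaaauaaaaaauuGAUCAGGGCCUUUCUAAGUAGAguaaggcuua

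Mir465, chrX:66839052-66839125: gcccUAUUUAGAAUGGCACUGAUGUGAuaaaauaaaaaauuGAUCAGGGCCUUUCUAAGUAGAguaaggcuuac

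The loop between the arms holds 17 bases in c, 15 in b and 14 in a. Mir465c-2 has the same sequence as Mir465c-1, and Mir465b-2 the same as Mir465b-1, so the output of each identical pair cannot be separated. The counts carry this limit: c and b are listed once for each of their 2 hairpins with identical values, and each was counted once here. Values of c and b therefore stand for 2 hairpins and those of a for 1, and the annotated 3p sequence can come from all 5. The joined 3p value uses the counts listed for a and b, so isoform reads listed only under c are not in it.

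Levels are given as CPM (counts scaled to the same total of distinct miRNA counts in each library). Those totals were 720259, 118475 and 258433 in Mtdh-/- libraries 1, 2 and 3, against 198640 and 474839 in WT libraries 1 and 2. A count of 3 corresponds to between 4.17 and 25.3 CPM, so that every member stood well above the counting floor in every library. Intervals and floors given here cover counting error only, since no molecular identifiers were used to count molecules.

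mmu-miR-465c-5p was the most abundant member in every library. It had 7849, 7580 and 8161 CPM in the Mtdh-/- libraries, against 9751 and 22724 CPM in the WT libraries. All Mtdh-/- libraries were below both WT libraries, and WT 2 stood far above the other 4. The means were 7863 ± 291 CPM in Mtdh-/- testes (SD, n = 3) and 16237 ± 9173 CPM in WT testes (SD, n = 2). The edgeR log2 fold change was -0.80 ± 0.55 (SE), with an adjusted p of 0.867 (edgeR quasi-likelihood, Benjamini-Hochberg over 246 features), so the difference was within the spread between libraries. Among 717 features it ranked 18, 24 and 23 in the Mtdh-/- libraries, against 16 and 9 in the WT libraries.

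mmu-miR-465b-5p, which differs from c only at base 13, followed at a lower level. It had 4522, 5115 and 4628 CPM in the Mtdh-/- libraries, against 4762 and 14224 CPM in the WT libraries. The groups overlapped, since WT 1 lay among the Mtdh-/- libraries and WT 2 alone was high. The means were 4755 ± 316 CPM in Mtdh-/- testes (SD, n = 3) and 9493 ± 6690 CPM in WT testes (SD, n = 2). The log2 fold change was -0.74 ± 0.58 (SE), with an adjusted p of 0.867 (edgeR, Benjamini-Hochberg).

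mmu-miR-465a-5p was the scarcest member on the 5p arm. It had 122, 312 and 302 CPM in the Mtdh-/- libraries, against 327 and 432 CPM in the WT libraries. Both WT libraries were above all Mtdh-/- libraries, but Mtdh-/- 2 and Mtdh-/- 3 were close to WT 1. With 37 counts in Mtdh-/- 2 and 65 in WT 1, their exact 95% Poisson intervals of 219.9 to 430.5 CPM and 253 to 417 CPM overlapped, so their order was not resolved at this depth. The means were 245 ± 107 CPM in Mtdh-/- testes (SD, n = 3) and 379 ± 73.9 CPM in WT testes (SD, n = 2). The log2 fold change was -0.57 ± 0.55 (SE), with an adjusted p of 0.867 (edgeR, Benjamini-Hochberg).

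The shared 3p arm (mmu-miR-465a-3p, mmu-miR-465b-3p and mmu-miR-465c-3p) varied most. It had 566, 1671 and 677 CPM in the Mtdh-/- libraries, against 403 and 3871 CPM in the WT libraries. The lowest and the highest library were both WT, with all Mtdh-/- libraries between them. mmu-miR-465a-3p and mmu-miR-465b-3p had identical counts and stand for the joined feature, while mmu-miR-465c-3p, whose hairpin differs in the bases before the arm, had 399, 196 and 204 counts in the Mtdh-/- libraries, against 91 and 1643 in the WT libraries. For the joined feature the counts were 408, 198 and 175 in the Mtdh-/- libraries, against 80 and 1838 in the WT libraries, with the lowest and the highest library the same for both. The means were 972 ± 608 CPM in Mtdh-/- testes (SD, n = 3) and 2137 ± 2452 CPM in WT testes (SD, n = 2), and the log2 fold change was -0.90 ± 0.85 (SE), with an adjusted p of 0.867 (edgeR, Benjamini-Hochberg).

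**Figure D1:**
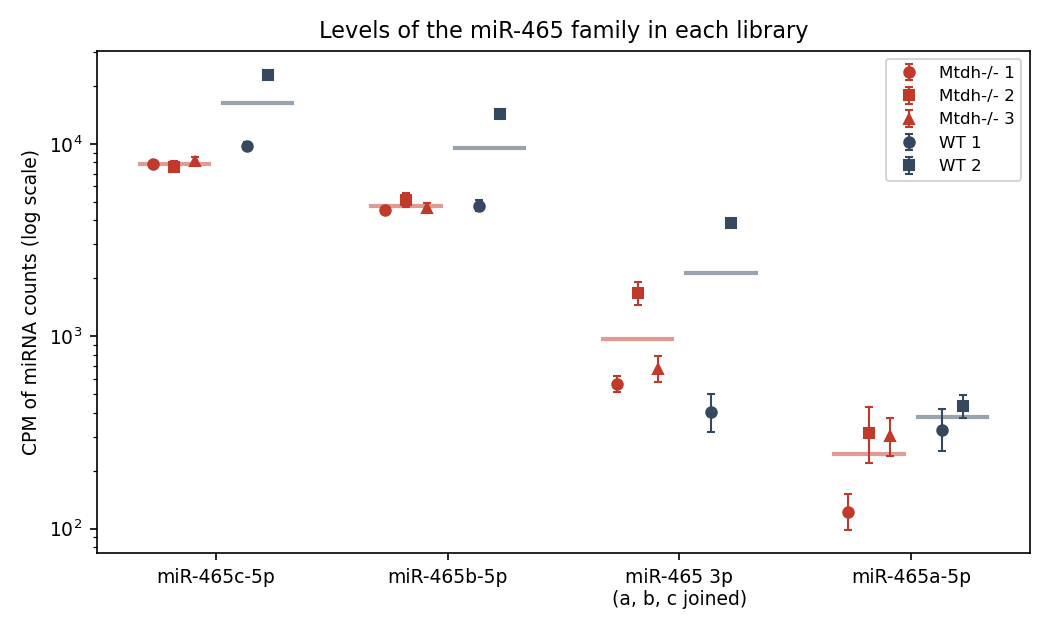
CPM (log scale) of the 4 distinct miR-465 features in 3 Mtdh-/- and 2 WT testis libraries, each point 1 library with its exact 95% Poisson interval and each line a group mean. Mtdh-/- libraries lie close together for miR-465c-5p (7580 to 8161 CPM) and WT 2 is the highest library for every feature.

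No member passed the test: 0 of 4 were called higher and 0 of 4 lower by edgeR at an adjusted p below 0.05, and 0% of all 246 features tested were called in either direction. Their unadjusted p-values in the edgeR fit across all features ran between 0.186 and 0.334, so none was among the 7 features with an unadjusted p below 0.05. DESeq2 called 0 of 511 features, with 19 at an unadjusted p below 0.05, and limma on the authors' normalized tags called 0 of 246, with 3 at an unadjusted p below 0.05. For 2 of 4 members, miR-465c-5p and miR-465a-5p, every Mtdh-/- library was below both WT libraries, a pattern found for 9.35% of all features tested, and 0 of 4 were above both WT libraries in every Mtdh-/- library, beside 4.88% of all features. All 4 log2 fold changes were negative, with a median of -0.77, while 44.3% of all features tested had a negative value and their median was 0.19. The members share hairpins, a location and in part their reads, so they are not independent of each other.

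For c, b and the 3p arm, the size of the difference depended on WT 2. Its level was 2.33 times that of WT 1 for c, 2.99 times for b, 1.32 times for a and 9.61 times for the 3p arm. The higher WT library, whichever it was, stood at a median of 1.98 times the lower over features of at least 100 CPM. That median therefore gives the size of the gap between the WT libraries and not its direction. Without WT 2 the log2 fold change became -0.41 for c and -0.11 for b, and the 3p arm turned to 1.05, each with WT 1 as the only WT library and assumed to vary like the Mtdh-/- libraries. miR-465a-5p was at -0.63 without WT 2, and moved more without Mtdh-/- 1, to -0.38, and without Mtdh-/- 3, to -0.97. None of the 4 was called by edgeR with any 1 library left out.

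**Figure D2:**
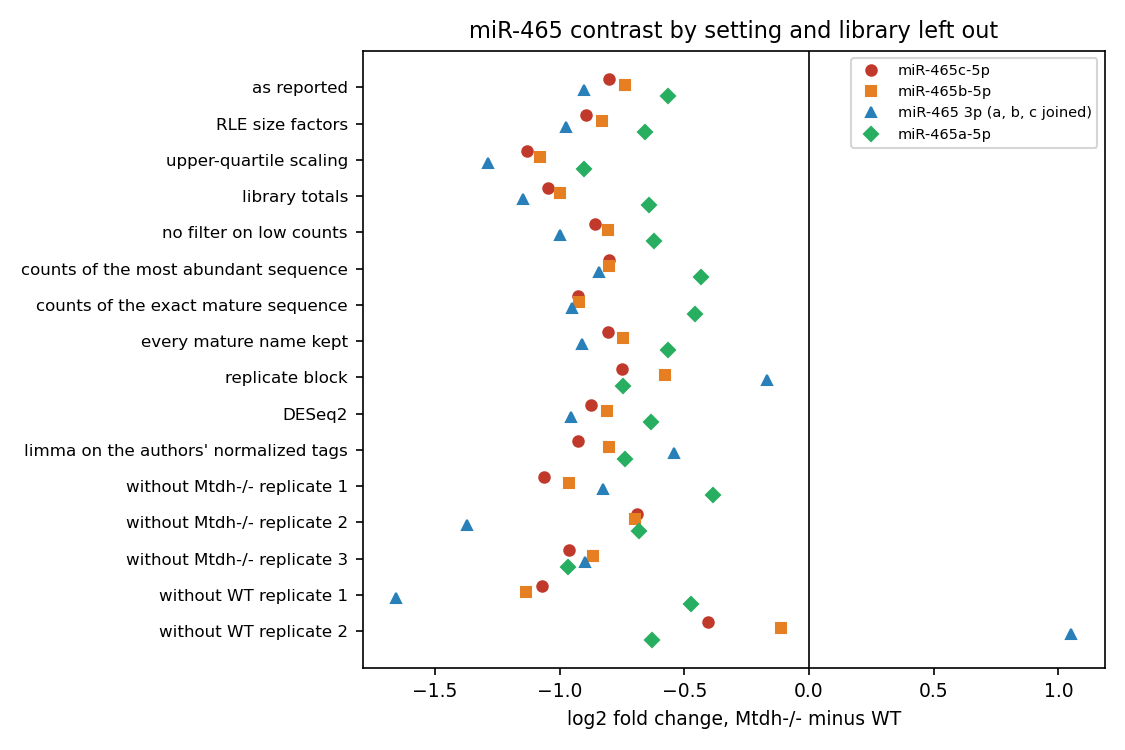
Log2 fold change (Mtdh-/- minus WT) of each miR-465 feature in the reported fit, under other scalings, filters and tests, and with each library left out. The 3p arm is the single feature with a positive value, 1.05 without WT replicate 2.

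The Mtdh-/- libraries agreed closely on the main 5p members when all isoforms were counted. The coefficient of variation over the Mtdh-/- libraries was 3.70% for c and 6.65% for b, beside a median of 50.8% over 192 features with a mean of at least 100 CPM. Of those 192, 1 was lower than c and 3 were lower than b. miR-465a-5p at 43.5% and the 3p arm at 62.6% were near the median. In the authors' normalized tags of all isoforms the coefficients were 4.83% for c and 4.85% for b. The relative spread was wider by the most abundant sequence alone. In the Mtdh-/- libraries c then had 4343, 3461 and 3962 CPM, and b had 2062, 1933 and 1637 CPM.

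Summed over the 4 features, the family had 13059, 14678 and 13768 CPM in the Mtdh-/- libraries, against 15244 and 41250 CPM in the WT libraries. The Mtdh-/- libraries were all below both WT libraries, WT 1 by a small margin. The means were 13835 ± 812 CPM in Mtdh-/- testes (SD, n = 3) and 28247 ± 18389 CPM in WT testes (SD, n = 2). In bulk tissue, fewer cells that make the family and less of it in each cell cannot be told apart. The summed germ cell markers miR-34c-5p, miR-449a-5p and miR-184-3p had 45724, 12745 and 40057 CPM in the Mtdh-/- libraries, against 59228 and 50396 CPM in the WT libraries. This sum too had every Mtdh-/- value under both WT values. The single markers did not all separate: miR-34c-5p had 34614, 5461 and 32651 CPM in the Mtdh-/- libraries, against 49512 and 10846 CPM in the WT libraries, so that the groups overlapped and WT 1 was highest. miR-449a-5p had 10019, 6432 and 5228 CPM in the Mtdh-/- libraries, against 7128 and 36924 CPM in the WT libraries, and overlapped with WT 2 highest. miR-184-3p, the scarcest of the 3, had 1091, 853 and 2179 CPM in the Mtdh-/- libraries, against 2588 and 2626 CPM in the WT libraries, with no overlap. Their part in the family's difference was not tested.

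The order of the members was c, then b, in every library. The ratio of c to b was 1.74, 1.48 and 1.76 in the Mtdh-/- libraries, against 2.05 and 1.60 in the WT libraries. Put as a share, b made up 36.6%, 40.3% and 36.2% of the b and c counts in the Mtdh-/- libraries, against 32.8% and 38.5% in the WT libraries. By the most abundant sequence alone, the ratio of c to b was 2.11, 1.79 and 2.42 in the Mtdh-/- libraries. It was 2.56 and 1.89 in the WT libraries. With all isoforms counted, the share of b changed less than its level, which in WT 2 was 2.99 times that in WT 1. The share still differed beyond counting error between these libraries. Its Wilson intervals in WT 1 (31.1% to 34.5%) and WT 2 (37.8% to 39.2%) did not overlap. The log2 ratio of b to c was -0.73 ± 0.14 in Mtdh-/- testes (SD, n = 3) and -0.85 ± 0.25 in WT testes (SD, n = 2), a difference of 0.13 (exact permutation test, two-sided, p = 0.6, adjusted over 3 ratios 0.8). It was -0.051 without WT 1. With 10 splits of 5 libraries the smallest p possible was 0.1, so none of these ratio tests could pass 0.05.

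miR-465a-5p made up 0.978%, 2.40% and 2.31% of the 5p counts in the Mtdh-/- libraries, against 2.20% and 1.15% in the WT libraries. The Wilson 95% intervals separate Mtdh-/- 1 (0.795% to 1.20%) and WT 2 (1.01% to 1.32%) from the other 3 libraries, so the split did not follow genotype. Counted per hairpin, the level of c over that of a was 32.1, 12.1 and 13.5 in the Mtdh-/- libraries, against 14.9 and 26.3 in the WT libraries, so a was also the lowest 5p form per hairpin. The log2 ratio of a to c was -5.11 ± 0.77 in Mtdh-/- testes (SD, n = 3) and -5.30 ± 0.59 in WT testes (SD, n = 2), a difference of 0.19 (exact permutation test, two-sided, p = 0.7, adjusted 0.8). The direction turned without Mtdh-/- 2, to -0.07, and without WT 2, to -0.22.

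The 5p arm was the main product in every library. The ratio of summed 5p to 3p counts was 22.1, 7.78 and 19.3 in the Mtdh-/- libraries, against 36.9 and 9.66 in the WT libraries. The 3p arm was therefore 4.34%, 11.4% and 4.92% of the family's counts in the Mtdh-/- libraries, against 2.64% and 9.38% in the WT libraries. Mtdh-/- 2 and WT 2 were high and the other 3 low, again across genotype. The log2 ratio of 3p to 5p was -3.90 ± 0.82 in Mtdh-/- testes (SD, n = 3) and -4.23 ± 1.36 in WT testes (SD, n = 2), a difference of 0.34 (exact permutation test, two-sided, p = 0.8, adjusted 0.8). The direction turned without Mtdh-/- 2, to -0.13, and without WT 1, to -0.62, and the difference was 1.30 without WT 2.

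The 3p arm was also less dominated by a single sequence. Each miRNA value sums isoforms, reads of differing sequence assigned to the same miRNA, and the counts do not show how they differ. For all 6 names the most abundant isoform was the annotated mature sequence. That sequence made up 49.6% of the counts of c-5p over the 5 libraries, 45.9% of a-5p and 40.8% of b-5p, but 18.9% of the 3p arm. Of 178 features with at least 200 counts, 4 had a lower share than the 3p arm, and the median was 49.5%. When only the most abundant sequence of each arm was counted, the 3p share was 2.48%, 3.34% and 2.94% in the Mtdh-/- libraries, against 1.36% and 3.75% in the WT libraries. The high value of Mtdh-/- 2 thus came mostly from other isoforms: its Wilson 95% interval of 2.24% to 4.97% then overlapped those of Mtdh-/- 1, Mtdh-/- 3 and WT 2. The intervals of WT 1 (0.876% to 2.12%) and WT 2 (3.36% to 4.18%) did not overlap each other.

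**Figure D3:**
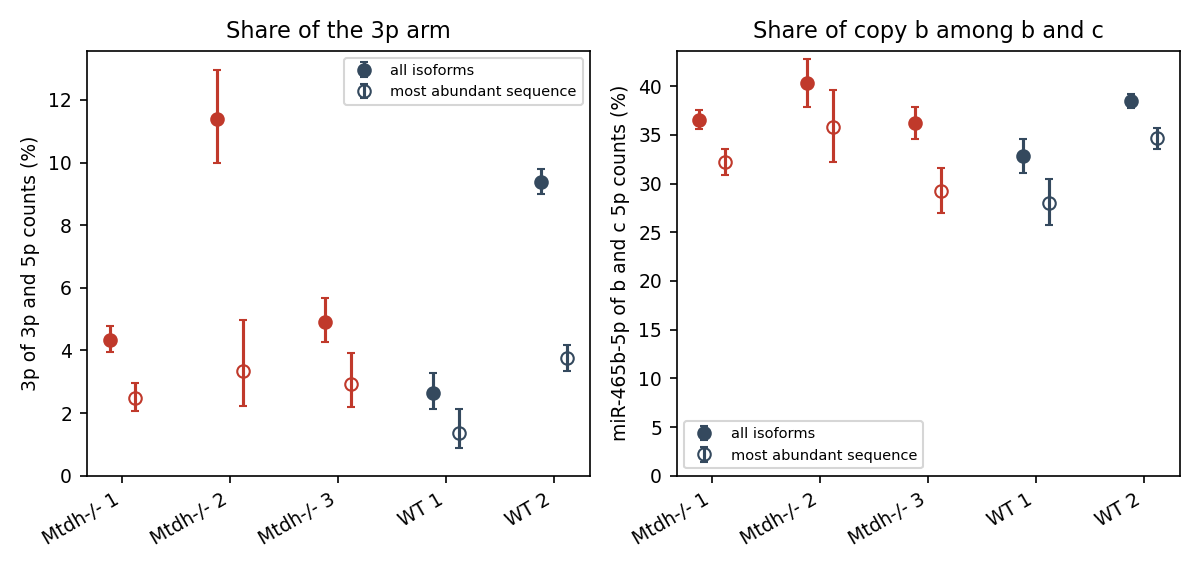
Shares within the miR-465 family, in percent, in 3 Mtdh-/- and 2 WT libraries, with Wilson 95% intervals for counting error. The 3p share is high in Mtdh-/- 2 (11.4%) and WT 2 (9.38%), while b makes up 32.8% to 40.3% of the b and c counts.

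The 3p arm exceeded miR-465a-5p in every library when all isoforms were counted, by point values of 4.64, 5.35 and 2.24 times in the Mtdh-/- libraries, against 1.23 and 8.97 times in the WT libraries. In WT 1 the counts were 80 and 65, with overlapping exact 95% Poisson intervals of 319 to 501 CPM and 253 to 417 CPM, so the order was not resolved there. The order also depends on the isoforms: by the most abundant sequence, the 3p arm had 23 counts in Mtdh-/- 2 and 19 in WT 1. These were below the 26 and 33 counts of a-5p in the same libraries, but such numbers are too small to settle the order in either.

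The family is 1 stretch of a longer X-linked row. The other listed X-linked miRNAs of the region between Slitrk2 and Fmr1 gave 30 distinct features, of which 23 passed the filter. Of these, 0 were called by edgeR, 6 had positive and 17 negative log2 fold changes with a median of -0.29, where 44.3% of all features tested were negative. In 1 of the 23, miR-471-3p, every Mtdh-/- library was below both WT libraries, beside 9.35% of all features tested. The cluster's summed level, the family included, was 45771, 62140 and 76283 CPM in the Mtdh-/- libraries, against 82048 and 112733 CPM in the WT libraries. The family supplied 28.5%, 23.6% and 18.05% of it in the Mtdh-/- libraries, against 18.6% and 36.6% in the WT libraries. This share overlapped between genotypes while the sum did not. Outside the family the cluster summed to 32712, 47462 and 62515 CPM in the Mtdh-/- libraries, against 66804 and 71483 CPM in the WT libraries. That sum too had every Mtdh-/- library below both WT libraries.

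The neighbouring miRNAs did not all follow the family. miR-470-5p, from the hairpin next to the miR-465 row, had 11543, 10770 and 9294 CPM in the Mtdh-/- libraries, against 6942 and 40405 CPM in the WT libraries. As for miR-465b-5p, WT 2 was far above all the others and the groups overlapped. miR-871-3p had 4615, 3857 and 27702 CPM in the Mtdh-/- libraries, against 26787 and 2453 CPM in the WT libraries, with Mtdh-/- 3 and WT 1 high. miR-881-3p had 7184, 12779 and 12026 CPM in the Mtdh-/- libraries, against 20504 and 8708 CPM in the WT libraries. WT 1 rather than WT 2 was its highest library, unlike the family. miR-871-5p and miR-743b-3p, the other abundant miRNAs of the cluster, also overlapped between genotypes, with log2 fold changes of 0.54 ± 0.64 and -0.24 ± 0.74 (SE).

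**Figure D4:**
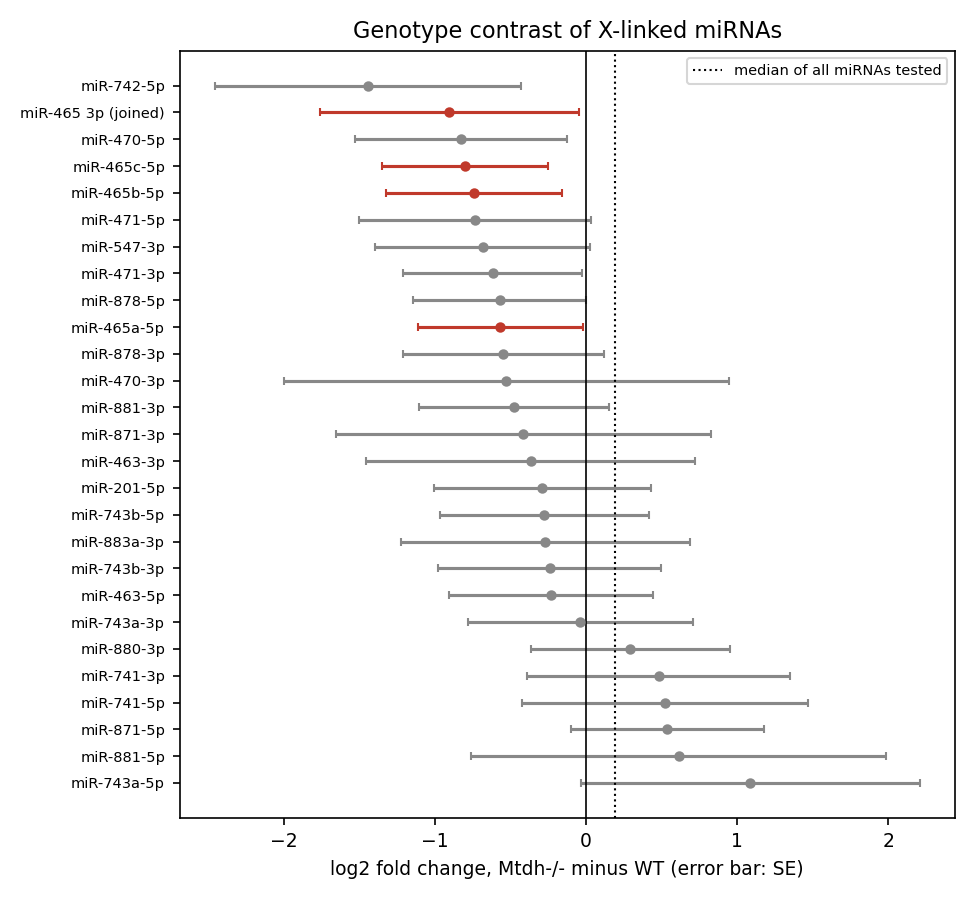
Log2 fold change (Mtdh-/- minus WT) with its SE from edgeR for the 27 X-linked miRNA features tested, sorted by value, with miR-465 features in red and others in grey; the dotted line is the median of all features tested (0.19). The miR-465 features lie between -0.90 and -0.57 among neighbours on both sides of 0.

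**Figure D5:**
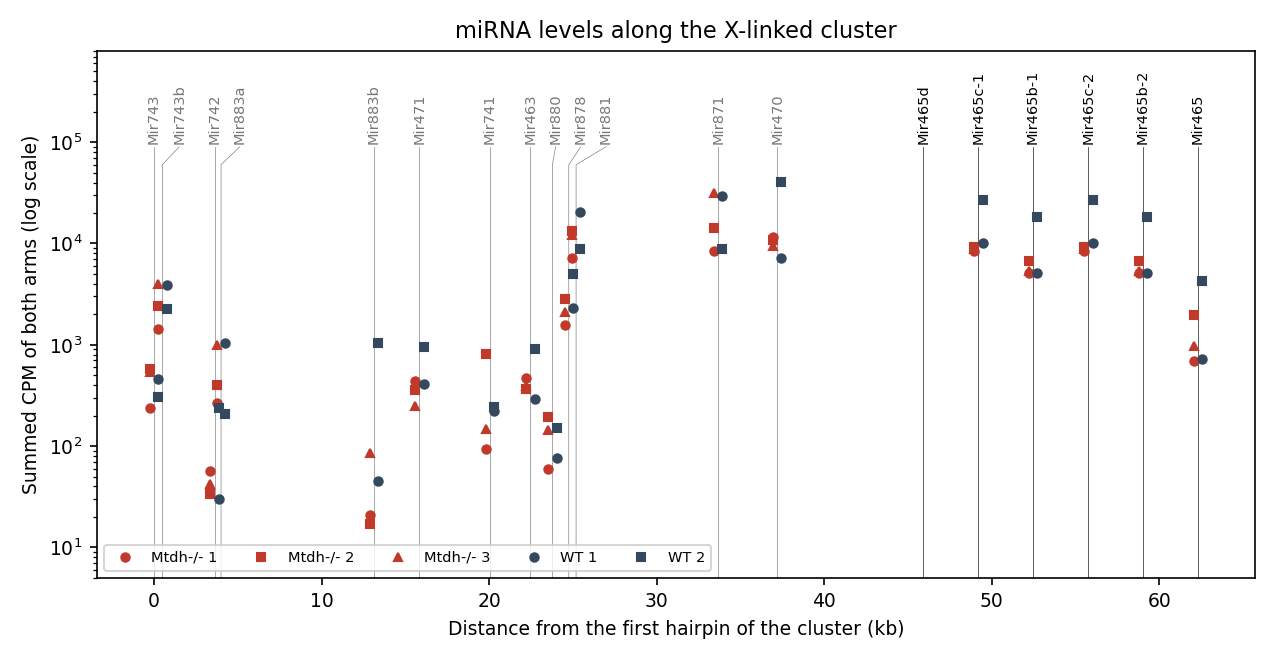
Summed CPM of both arms (log scale) of each hairpin along the X-linked cluster, by distance in kb from its first hairpin, each point 1 library, with Mtdh-/- libraries in red and WT libraries in dark blue. Identical c or b hairpins carry the same values and the shared 3p arm is drawn at each copy. WT 2 is the highest library at Mir470 and all miR-465 hairpins with values. It is also the highest at Mir742, Mir883b, Mir471, Mir463 and Mir878. It is not the highest at Mir743, Mir743b, Mir883a, Mir741, Mir880, Mir881 or Mir871.

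The miRNAs outside the family whose levels over the 5 libraries were most like the summed family were found by the root-mean-square difference of centred log2(CPM + 1) values among 188 features of at least 100 CPM. They were miR-30a-3p (0.25), miR-202-5p (0.27), miR-878-5p (0.27), miR-30e-3p (0.27) and miR-181d-5p (0.29), where the median feature had 0.87. miR-878 belongs to the same X-linked cluster, and miR-202-5p is a gonadal miRNA used as a Sertoli cell marker here. Of the abundant cluster miRNAs named above, miR-470-5p came at position 12 of 188 by this measure. The others came further down, miR-871-5p at 78, miR-881-3p at 96, miR-743b-3p at 115 and miR-871-3p at 177. miR-202-5p had 977, 1680 and 1095 CPM in the Mtdh-/- libraries, against 1087 and 2748 CPM in the WT libraries. All 5 of these most alike miRNAs were highest in WT 2 as the family was, which largely follows from how they were chosen. Unlike the summed family, each of them overlapped between the groups. With 5 libraries this likeness is a description of these libraries alone.

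Of 19 markers of testis and other cell types, 18 were found, miR-126-3p, miR-126-5p and miR-486-5p under names without a copy letter or by sequence. The testis markers of germ cells and Sertoli cells were present in every library, with at least 12745 and 1020 CPM in sum. The stromal markers miR-143-3p and miR-145a-5p summed to between 83424 and 110209 CPM in the Mtdh-/- libraries, against 68722 and 118602 CPM in the WT libraries. Blood markers, mostly miR-486-5p, which is joined with the identical miR-3107-5p, summed to 1058, 1299.9 and 1258 CPM in the Mtdh-/- libraries, against 1601 and 1457 CPM in the WT libraries. As for the family, each Mtdh-/- sum was below both WT sums. The same held for miR-486-5p alone, but the other blood markers overlapped between genotypes. miR-451a had 107, 194 and 50.3 CPM in the Mtdh-/- libraries, against 55.4 and 90.6 CPM in the WT libraries. miR-144-3p had 5.55, 16.9 and 0 CPM in the Mtdh-/- libraries, against 10.1 and 14.7 CPM in the WT libraries. The part of blood in the family's values was not tested. Of the markers found, miR-144-3p of blood was at 0 in Mtdh-/- 3 and miR-133a-3p of striated muscle at 0 in Mtdh-/- 2. Striated muscle markers ranged between 270 and 1795 CPM in the Mtdh-/- libraries and between 1386 and 1626 CPM in the WT libraries, and epithelial markers between 865 and 2020 CPM in the Mtdh-/- libraries and between 1072 and 1716 CPM in the WT libraries. The endothelial markers miR-126-3p and miR-126-5p summed to between 1460 and 11160 CPM in the Mtdh-/- libraries and between 3177 and 5612 CPM in the WT libraries. Their log2 fold changes had opposite signs, 1.29 for miR-126-3p and -0.67 for miR-126-5p, and neither was called by edgeR. The Sertoli sum, mostly miR-202-5p, had 1020, 1899 and 1219 CPM in the Mtdh-/- libraries, against 1113 and 2856 CPM in the WT libraries. It was highest in WT 2 as the family was. miR-202-3p was instead highest in Mtdh-/- 2, with 43.0, 219 and 124 CPM in the Mtdh-/- libraries, against 25.2 and 107 CPM in WT. The log2 fold changes had opposite signs, -0.42 for miR-202-5p and 1.03 for miR-202-3p, and neither was called by edgeR. The part of Sertoli cells in the family's values was not tested.

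The authors' deposited tables set single Mtdh-/- libraries against the WT group by a fold ratio, taken on the most abundant sequence after adding 10 to both values. They list miR-465 names as lower in the table of each Mtdh-/- library and as higher in 0 of the 3 tables. The authors' deposited tables hold 86, 87 and 54 names as lower and 28, 111 and 44 as higher for Mtdh-/- 1, 2 and 3, beside 736 mature names in the series. Of the 6 miR-465 names, 4, 1 and 4 were listed as lower in these tables. The 3p names, which share a most abundant sequence, are listed there separately. The members listed differ between them: the authors' deposited table for Mtdh-/- 1 lists a-5p at 0.315 and the 3p names at 0.464, the authors' deposited table for Mtdh-/- 2 lists c-5p at 0.435, and the authors' deposited table for Mtdh-/- 3 lists b-5p at 0.432 and the 3p names at 0.483. These are comparisons of 1 library and carry no replicate spread. Of the authors' 7 deposited tables of groups with a miRNA listed, 0 list a miR-465 name. Those tables hold between 3 and 14 names each, so being absent from them was common. What the groups stand for was not stated in the sources used here.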

How the data were processed

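Small RNA was sequenced from 3 Mtdh-/- and 2 WT testes libraries. Per the labels' protocols, frozen testes were extracted with mirVana reagents and sequenced after Illumina TruSeq preparation. Reads were aligned with Novoalign 2.07.11, per the submitters' processing notes; genome build, trimming and how reads were assigned were not given in the sources used here. The authors deposited raw counts per miRNA and precursor (summed isoforms, most abundant sequence, exact mature sequence), normalized tags (used as a score) and tables with a fold ratio per miRNA. Of 846 lines, 110 repeats of a name on another precursor were left out and 19 names with a shared most abundant sequence were joined, leaving 717 features; 226 per-library columns were not used. The smallest count above 0 was 2.

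Counts were tested on all 246 features passing filterByExpr with edgeR 4.0.16 (R 4.3.3; TMM, quasi-likelihood test, Benjamini-Hochberg threshold 0.05); DESeq2 1.42.0 and limma 3.58.1 (log2 of normalized tags, pseudocount 1) were alternatives. The edgeR step was tested on simulated data. Within-library log2 ratios (0.5 added) were compared by exact permutation tests with SciPy 1.17.1. The b to c ratio was added after seeing the data. Named miRNAs were all members, the 5 most abundant others of an X-linked list, the 5 nearest profiles, any sharing a seed, and cell type markers; miR-471-3p was named after its values were seen. The members and lists were chosen with earlier results of these data known.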

Additional observations from a re-analysis of the deposited data

How the results depend on the processing

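Without a filter on low counts 512 features were tested and edgeR called 3 higher and 2 lower, none of them miR-465; every other setting called 0 and 0. Of 117 recomputed values, 109 kept direction and side of the threshold. With single libraries left out, log2 fold changes ranged between -1.07 and -0.41 for c-5p, -1.13 and -0.11 for b-5p, -1.65 and 1.05 for the 3p arm (reversed without WT 2) and -0.97 and -0.38 for a-5p. The ratio differences ranged between -0.62 and 1.30 for 3p to 5p (reversed to -0.13 without Mtdh-/- 2 and to -0.62 without WT 1), between -0.22 and 0.64 for a to c (reversed to -0.07 without Mtdh-/- 2 and to -0.22 without WT 2) and between -0.051 and 0.31 for b to c (reversed to -0.051 without WT 1). The cause was not tested. Adjusted p of members in edgeR, DESeq2 and limma was between 0.757 and 0.996 over the alternatives. Upper-quartile scaling moved the median of all features by -0.32 and library totals by -0.17; relative to these shifts, c-5p was at -0.81 and -0.88. Replicate numbers 1 and 2 occur in both genotypes but the labels do not say that they mark pairs, and same-numbered libraries deviated with correlations of -0.438 and 0.0939. The highest correlation, 0.535, was between Mtdh-/- 3 and WT 1, which differ in number. With 2 WT libraries, the values of each Mtdh-/- library with WT 1 and with WT 2 mirror each other by construction. With the replicate number as a block, log2 fold changes were -0.75 for c-5p, -0.58 for b-5p, -0.17 for the 3p arm and -0.75 for a-5p, with 0 features called by edgeR and 12 at an unadjusted p below 0.05. Depth limits a-5p most, with 37 to 205 counts a library.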
